A study of Mus musculus with 15 samples.

Results

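The 10 genes described here are secreted signals of the hair cycle: the fibroblast growth factors Fgf5, Fgf7, Fgf10, Fgf18 and Fgf22, the bone morphogenetic proteins Bmp2, Bmp4 and Bmp6, and the BMP antagonists Nog and Grem1. They were chosen by name, for their known part in hair growth and rest, with earlier results of these data known. Counts of members or of other listed genes, set beside shares of all genes, therefore describe these genes and do not test them. All 10 members were found among the 56059 genes of the deposited table and passed the filter on low counts. Fgf5 and Fgf18 passed that filter through groups other than allogeneic vehicle, where their counts were lowest.

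RNA came from skin of mice given a bone marrow transplant, modelling the scarring skin form of chronic graft-versus-host disease, where immune cells from the donor damage the host. Recipients of a syngeneic transplant (n = 4) and of an allogeneic transplant (n = 3) received the vehicle, 0.4% methylcellulose. A further allogeneic group (n = 4) was dosed with Wnt-C59 at 5 mg/kg. The last allogeneic group (n = 4), called the combination here, had the same dose of Wnt-C59 together with belumosudil at 150 mg/kg. Wnt-C59 blocks porcupine, the enzyme that adds the lipid Wnt proteins need for their release, and belumosudil blocks the kinase ROCK2. Dosing was oral and daily between day 21 and day 49, and skin was taken 7 weeks after the transplant. All 4 groups thus share the transplant and the daily gavage. Strain, age, sex and skin site are not given in the sources used here, nor is it stated that each library is 1 mouse, so the p-values measure the spread between these libraries, which may be technical.

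Some limits of the table touch every result on the treated groups. Columns of the combination bear the letters RW, whose meaning the labels do not give. They were assigned to this group because no other group lacked columns, and the series title names ruxolitinib and ibrutinib besides belumosudil. Treated libraries are numbered here as their columns are (Wnt-C59 1, 2, 4 and 5, combination 2, 3, 4 and 5). Totals were 16.26 to 20.39 M estimated counts in the vehicle libraries and 18.99 to 28.78 M in the treated ones. The treated libraries also had more fractional values (44.76 to 60.62% of nonzero values, against 31.07 to 34.39% in the vehicle libraries). Across tested genes, which are not independent replicates, the log2 fold change against allogeneic skin followed GC content in the treated groups (Spearman's rho 0.50 for Wnt-C59 and 0.54 for the combination), and hardly so for allogeneic against syngeneic skin (-0.10). Treatment and any batch with the same split cannot be told apart. The median tested gene had 49.7% GC in its longest transcript, and the members ran from 38% (Fgf7) to 57.8% (Bmp6).

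Hair follicles pass through growth (anagen), regression (catagen) and rest (telogen). BMP2, BMP4 and BMP6 hold follicle stem cells at rest, and the antagonists Noggin and Gremlin 1, which bind BMPs outside the cell, release that brake. FGF7 and FGF10 from the dermal papilla promote entry into growth, FGF18 from the bulge and the inner bulge layer maintains rest, and FGF5 from the outer root sheath ends the growth phase, so that animals without FGF5 have long hair. FGF22 is an epithelial FGF found in the inner root sheath.

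The starts of 4 of these genes are shown because the results below turn on them. Each sequence is the 250 bases before the transcription start in RefSeq, build GRCm38.p6, given on the strand of the gene. RefSeq's table held 8 of the 10 members, without Bmp2 and Nog. Capitals mark a GC box, GGGCGG or its reverse complement, the motif bound by SP1-like factors. Fgf18 lies at chr11:33147401-33147650 on the minus strand, Bmp4 at chr14:46390670-46390919 on the minus strand, Bmp6 at chr13:38345466-38345715 on the plus strand, and Fgf5 at chr5:98253934-98254183 on the plus strand.
Fgf18: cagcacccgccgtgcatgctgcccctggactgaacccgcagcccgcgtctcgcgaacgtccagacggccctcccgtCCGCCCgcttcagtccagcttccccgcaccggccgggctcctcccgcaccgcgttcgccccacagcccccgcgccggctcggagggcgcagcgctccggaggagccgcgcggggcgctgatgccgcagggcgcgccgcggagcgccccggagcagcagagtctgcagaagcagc
Bmp4: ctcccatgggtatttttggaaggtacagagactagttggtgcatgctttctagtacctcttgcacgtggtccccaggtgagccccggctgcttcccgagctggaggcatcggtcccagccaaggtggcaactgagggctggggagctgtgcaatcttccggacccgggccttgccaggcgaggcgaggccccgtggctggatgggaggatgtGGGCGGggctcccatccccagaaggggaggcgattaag
Bmp6: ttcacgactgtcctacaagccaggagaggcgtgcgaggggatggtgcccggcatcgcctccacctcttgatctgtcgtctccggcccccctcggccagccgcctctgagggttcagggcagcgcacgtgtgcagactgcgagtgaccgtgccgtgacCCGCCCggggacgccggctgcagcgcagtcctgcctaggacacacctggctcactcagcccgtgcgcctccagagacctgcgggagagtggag
Fgf5: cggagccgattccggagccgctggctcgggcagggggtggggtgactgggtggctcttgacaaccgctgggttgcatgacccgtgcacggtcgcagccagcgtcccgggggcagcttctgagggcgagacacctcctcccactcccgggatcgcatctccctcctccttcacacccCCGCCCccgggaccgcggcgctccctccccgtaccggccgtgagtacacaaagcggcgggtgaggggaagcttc
All 4 windows were rich in G and C (77.2% for Fgf18, 63.2% for Bmp4, 68.8% for Bmp6 and 70.8% for Fgf5, beside a median of 52.4% over 32851 promoters). Each held 1 GC box, starting 174 bases before the start of Fgf18, 38 before Bmp4, 93 before Bmp6 and 74 before Fgf5. A GC box stood in 32.7% of all promoters of this length. On both strands, none of the 4 held TATAAA (12.4% of promoters), the TCF/LEF core CTTTGNT (16%) or the BMP-SMAD site GGCGCC (9.59%). Among members whose windows are not shown, Fgf7 and Fgf10 held the TCF/LEF core and Grem1 held the BMP-SMAD site. For Grem1 the bases after this start were not found in an annotated transcript of the gene, so its window is less certain. TCF/LEF factors act at the end of the Wnt pathway. A match or its absence describes these letters in this window and nothing more.

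Levels are in CPM, counts per M of the TMM-scaled library. Set against length, as CPM per kb of the longest transcript, the ranking of the 10 genes differed between the groups. In syngeneic skin Bmp4 led with 15.5 ± 1.67 CPM per kb (SD, n = 4). Fgf22 followed at 10.3 ± 3.39, Bmp2 at 7.3 ± 2.77 and Grem1 at 6.37 ± 1.7, and these neighbours lay within their spread of each other. In allogeneic vehicle skin Grem1 had the highest mean, 13.6 ± 8.33 CPM per kb (n = 3), and Fgf5 (0.166 ± 0.0515) and Fgf18 (0.33 ± 0.431) came last. That lead did not hold in allogeneic library 2, where Grem1 (4.37) was under Fgf22 (5.55) and Nog (4.7). In Wnt-C59 skin Fgf18 led with 23.4 ± 7.28 CPM per kb (n = 4), ahead of Bmp4 at 11.7 ± 4.05. In combination skin Bmp4 (13.4 ± 7.54) and Fgf18 (9.77 ± 4.06) were the 2 highest, within their spread of each other.

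**Figure D1:**
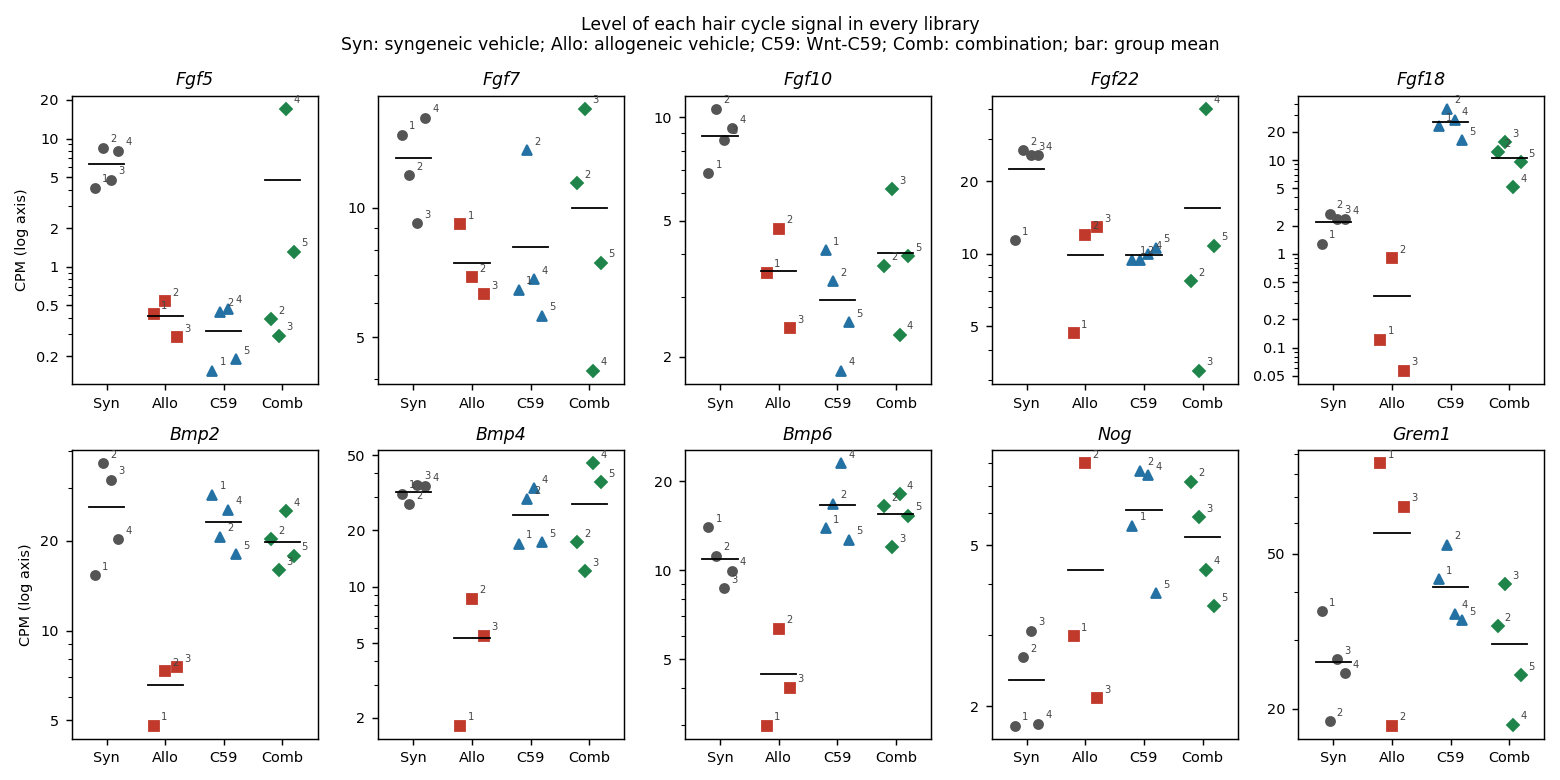
Level of each of the 10 genes in CPM (log axis, own scale per panel) in every library; points are libraries with their numbers, bars are group means. Fgf18 is under 1 CPM in the 3 allogeneic libraries and at 16.4 CPM or more in the 4 Wnt-C59 libraries, and Fgf5 is high in syngeneic skin and in combination library 4.

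Allogeneic skin held less of the FGF and BMP ligands than syngeneic skin. Fgf5, Fgf10, Fgf18, Bmp2, Bmp4 and Bmp6 fell, by about 2.46-fold (Bmp6) to 15.1-fold (Fgf5), while Fgf7, Fgf22 and both antagonists did not pass the test. Thus 6 of 10 members were called lower, beside 15.1% of all tested genes called lower and 29.8% called in either direction, by edgeR's quasi-likelihood test with Benjamini-Hochberg adjustment over 18651 genes. The groups did not overlap, with allogeneic skin lower, for 7 members, beside 19.9% of all genes. The median log2 fold change of the members was -1.31, and that of all tested genes -0.07. In whole skin, fewer cells of a type and less RNA per cell cannot be told apart.

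Fgf5, the signal that ends hair growth, stood at 4.13, 8.49, 4.76 and 8.02 CPM in the syngeneic libraries and at 0.425, 0.539 and 0.282 CPM in the allogeneic ones. Every allogeneic library lay far under every syngeneic one. The log2 fold change was -3.92 (SE 1.26, edgeR adjusted p = 0.033). This call was lost in 6 of 16 alternatives (adjusted p up to 0.11), among them each allogeneic library left out in turn, with log2 fold changes of -4.15 to -3.70. With only the syngeneic and allogeneic libraries in the fit, the adjusted p was 0.00024.

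Markers of the hair shaft and inner root sheath moved with Fgf5. Their summed level (14 of the 15 listed genes in the table) was 8169 to 25970 CPM in syngeneic and 40.4 to 66.3 CPM in allogeneic libraries. Krt71, a keratin that defines the inner root sheath, ran from 2365 to 6651 CPM in syngeneic skin, while it was at 0, 0.12 and 0.169 CPM in allogeneic skin. Krt25, its partner, was at 0 in allogeneic library 3. Corin, which marks the dermal papilla, stood at 4.62 to 19.4 CPM and at 0.419 to 0.62 CPM, yet the summed dermal papilla list overlapped (114 to 194 and 80 to 179 CPM). The part of these shifts in the fall of Fgf5 was not tested.

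Fgf18, which maintains hair follicle rest, was at 1.28, 2.69, 2.38 and 2.34 CPM in syngeneic skin and at 0.121, 0.898 and 0.0564 CPM in allogeneic skin. The allogeneic values rest on 2, 15 and 1 counts, so their ratio is loosely set, but the groups did not overlap. Its log2 fold change was -2.59 (SE 0.65, adjusted p = 0.0081), and -4.53 without allogeneic library 2, and the call held in all 16 alternatives. Summed markers of the bulge and outer root sheath, follicle parts where Fgf18 is made, were 1711 to 3396 CPM in syngeneic and 187 to 338 CPM in allogeneic skin. Their part in the fall of Fgf18 was not tested.

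Of the signals from the papilla, Fgf10 fell and Fgf7 did not pass. Fgf10 stood at 6.88, 10.6, 8.61 and 9.3 CPM in syngeneic and at 3.52, 4.73 and 2.42 CPM in allogeneic libraries, with no overlap. It fell by 1.31 on the log2 scale (SE 0.36, adjusted p = 0.012). With allogeneic library 3 left out this was no longer called (adjusted p = 0.065). Fgf7, known also as keratinocyte growth factor, ran from 9.2 to 16.2 CPM in syngeneic and from 6.31 to 9.17 CPM in allogeneic skin. These ranges just failed to touch, and the log2 difference of -0.80 (95% interval -1.69 to 0.08, adjusted p = 0.16) did not pass. Fgf22 was at 11.4, 26.9, 25.7 and 25.7 CPM against 4.68, 12 and 12.9 CPM. Syngeneic library 1 alone lay inside the allogeneic range, and the difference of -1.18 did not pass (95% interval -2.59 to 0.23, adjusted p = 0.19).

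All 3 BMP ligands fell. Bmp4, made by the dermal papilla and dermal fibroblasts, was at 31.2, 27.4, 34.9 and 34.3 CPM in syngeneic libraries and at 1.82, 8.62 and 5.47 CPM in allogeneic ones. Even the highest allogeneic library was far under the lowest syngeneic one. The log2 fold change was -2.59 (SE 0.53, adjusted p = 0.0026). Bmp2, from dermal adipocytes and the follicle epithelium, stood at 15.3, 36.3, 32 and 20.2 CPM against 4.8, 7.3 and 7.55 CPM. The groups lay clearly apart, with a log2 fold change of -1.98 (SE 0.30, adjusted p = 0.00028). Bmp6, which the inner bulge layer makes during rest, was at 14, 11.2, 8.7 and 9.96 CPM against 2.98, 6.35 and 4 CPM. It too did not overlap, with a log2 fold change of -1.30 (SE 0.28, adjusted p = 0.0033). These calls held in all 16 alternatives for each of the 3 genes.

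Other cell types shifted at the same time. Summed fibroblast markers were 3479 to 8021 CPM in syngeneic and 1272 to 2331 CPM in allogeneic skin. Pdgfra, a defining fibroblast marker, overlapped between the groups (30.1 to 61 and 15.1 to 56.9 CPM). Adipocyte markers overlapped (813 to 1883 and 306 to 828 CPM). Sebaceous gland markers were lower without overlap (2481 to 3325 against 547 to 2098 CPM). Macrophage markers were higher (381 to 707 against 3178 to 4131 CPM), as were T cell markers (5.52 to 10.4 against 64.4 to 103 CPM). Markers of interfollicular keratinocytes (11355 to 18730 against 23900 to 41683 CPM), skeletal muscle (3265 to 5355 against 7534 to 29383 CPM) and endothelial cells (96.9 to 126 against 205 to 322 CPM) were also higher without overlap. Their part in the lower BMP ligand levels was not tested.

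The antagonists went the other way or overlapped. Grem1 was at 35.6, 18.6, 26.8 and 24.7 CPM in syngeneic and at 85.3, 18.1 and 66 CPM in allogeneic skin. Allogeneic library 2 was the lowest of all 7 and the other two the highest. The log2 difference of 1.09 (95% interval 0.22 to 1.97) missed the threshold (adjusted p = 0.058), and passed without allogeneic library 2 (1.52, adjusted p = 0.0021). Nog was at 1.79, 2.64, 3.07 and 1.81 CPM against 2.98, 7.96 and 2.09 CPM. Here allogeneic library 2 was the highest, the ranges overlapped, and the difference of 0.90 did not pass (adjusted p = 0.12).

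The balance of ligands and antagonists was set out per library, as the summed Bmp2, Bmp4 and Bmp6 over the summed Nog and Grem1, both in CPM per kb. It was 2.42, 4.39, 3.43 and 3.57 in syngeneic libraries and 0.137, 0.882 and 0.344 in allogeneic ones. Transcripts of these ligands outweighed those of Nog and Grem1 in every syngeneic library and fell short of them in every allogeneic one. In Wnt-C59 skin the ratio was 1.47, 1.43, 2.31 and 1.63, and in combination skin 1.54, 1.01, 4.89 and 3.35. Combination libraries 4 and 5 lay within or above the syngeneic range and libraries 2 and 3 lay between the vehicle groups. The ratio was formed with the results in view and is given without a test. It leaves out Bmp7 and the other BMP antagonists, which are described further below.

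**Figure D2:**
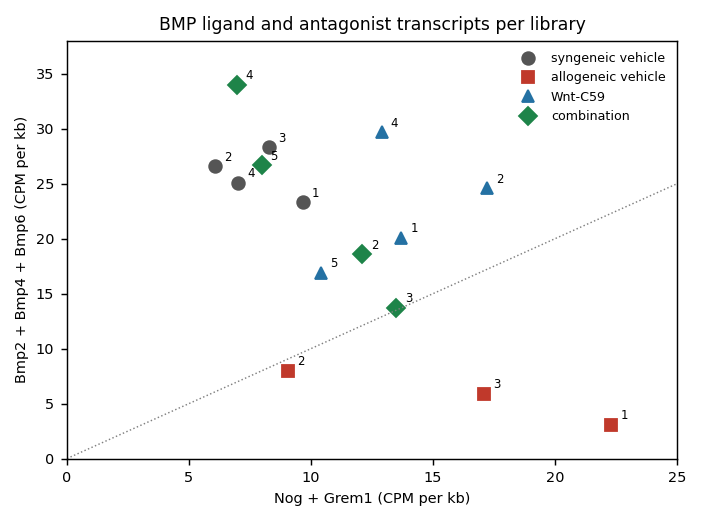
Summed Bmp2, Bmp4 and Bmp6 against summed Nog and Grem1, both in CPM per kb of the longest transcript, 1 numbered point per library; the dotted line marks equal sums. The 3 allogeneic vehicle libraries lie under the line, with ratios of 0.137 to 0.882, and all others lie above it.

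With Wnt-C59, Fgf18 and the 3 BMP ligands were higher than in allogeneic vehicle skin, and Fgf5, which ends the growth phase, was not. Fgf18 rose about 70.2-fold and passed the syngeneic level, while Bmp2, Bmp4 and Bmp6 rose 3.53-fold to 4.54-fold. Called higher were 4 of 10 members, beside 24.6% of all tested genes called higher and 50.8% called in either direction by edgeR, so the share of members called at all was under that of all genes. The same 4 did not overlap with allogeneic skin, beside 26.4% of all genes that were higher without overlap. The median log2 fold change was 0.31 over the members and 0.00 over all tested genes.

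Fgf18 stood at 23.1, 35.4, 26.7 and 16.4 CPM in the Wnt-C59 libraries, against 0.121, 0.898 and 0.0564 CPM in allogeneic vehicle. All 4 treated libraries were also above all 4 syngeneic ones. The log2 fold change against allogeneic vehicle was 6.13 (SE 0.70, edgeR adjusted p = 1.7e-05). It was 8.08 without allogeneic library 2 and 5.52 with the GC trend removed. Bulge and outer root sheath markers were higher as well, at 3663 to 6166 CPM against 187 to 338 CPM. Krt15, the bulge keratin, was at 3146 to 5353 CPM against 64.1 to 162 CPM in allogeneic and 894 to 2325 CPM in syngeneic skin. Their part in the rise of Fgf18 was not tested.

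Fgf5 remained low, at 0.154, 0.446, 0.469 and 0.19 CPM, within or under the allogeneic range. The log2 difference of -0.39 had a wide interval (-3.16 to 2.38, adjusted p = 0.83). Hair shaft and inner root sheath markers also stayed near the allogeneic level, at 77.8 to 86.6 CPM in all. Krt71 was at 0.564 to 0.76 CPM and Krt25 at 0 in 3 of the 4 Wnt-C59 libraries.

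Bmp4 was at 16.9, 29.1, 33.3 and 17.2 CPM with Wnt-C59, above every allogeneic library, and its log2 fold change was 2.18 (SE 0.52, adjusted p = 0.0034). Bmp2 was at 28.5, 20.6, 25.4 and 18 CPM, again without overlap (1.82, SE 0.30, adjusted p = 0.00022). Bmp6 was at 13.9, 16.8, 23 and 12.7 CPM, above 3 or more of the 4 syngeneic libraries in each case (1.90, SE 0.29, adjusted p = 0.00012). With the GC trend removed the change of Bmp6, the member richest in GC, was 1.15 (adjusted p = 0.0056). Summed fibroblast markers were 3211 to 6147 CPM, adipocyte markers 836 to 3189 CPM and sebaceous gland markers 2872 to 9976 CPM, all above the allogeneic range, and their part was not tested. The calls of Fgf18, Bmp2, Bmp4 and Bmp6 held in all 15 alternatives.

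The other 5 members did not pass against allogeneic vehicle. Fgf7 was at 6.46, 13.6, 6.82 and 5.61 CPM, with only library 2 above the allogeneic range. With the GC trend removed Fgf7, the member poorest in GC, was called higher (1.32, adjusted p = 0.029, against 0.13 without that step). Fgf10 ran from 1.82 to 4.1 CPM and Fgf22 from 9.47 to 10.6 CPM, both overlapping with allogeneic skin. Nog was at 5.59, 7.64, 7.45 and 3.8 CPM (0.49, 95% interval -0.41 to 1.40), and passed without allogeneic library 2 (1.27, adjusted p = 0.016). Grem1 was at 43.1, 52.8, 35.1 and 33.8 CPM (-0.45, 95% interval -1.33 to 0.42), and passed as lower without the same library (-0.88, adjusted p = 0.027).

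**Figure D3:**
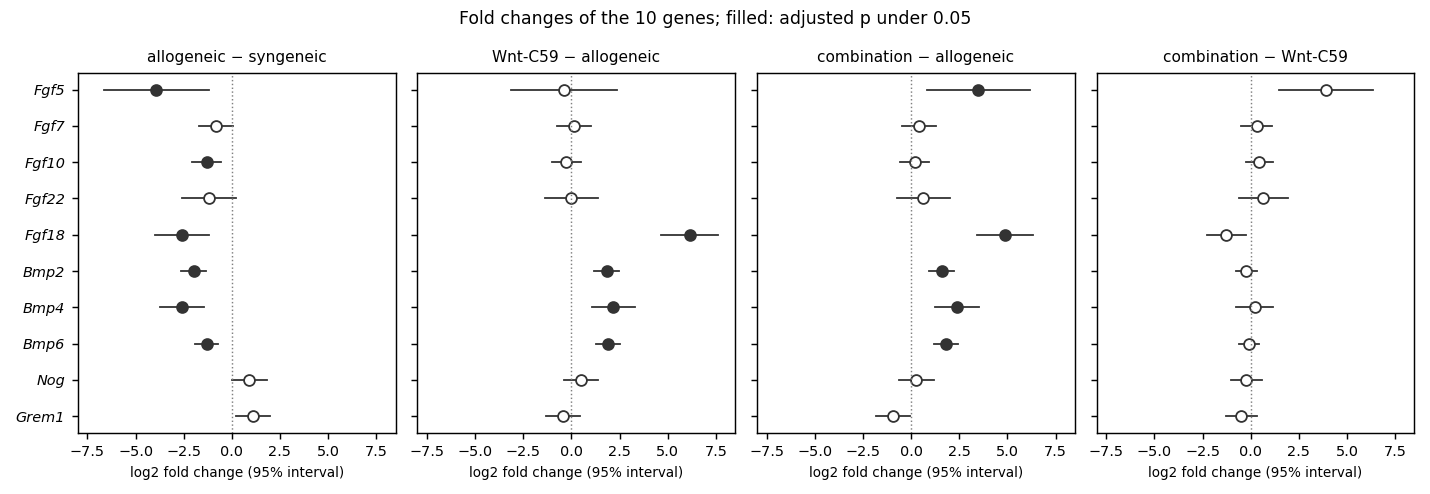
Log2 fold change of each gene with its 95% interval in the 4 main comparisons (edgeR), filled where the adjusted p was under 0.05. The 3 BMP ligands and Fgf18 lie left of 0 for allogeneic against syngeneic and right of 0 for both treated groups against allogeneic.

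With the combination, the same 4 genes were above allogeneic vehicle, and the libraries split over Fgf5. Fgf18 was about 29.3-fold higher and Bmp2, Bmp4 and Bmp6 were 3.01-fold to 5.2-fold higher. Called higher were 5 of 10 members, Fgf5 being the fifth, beside 27.1% of all tested genes called higher and 54.5% called in either direction. Without overlap 4 were higher, beside 25.6% of all genes. The median log2 fold change was 1.11 for the members and 0.01 for all genes. These comparisons share the allogeneic libraries with those of Wnt-C59.

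Fgf5 was at 0.388, 0.289, 17.1 and 1.31 CPM in combination libraries 2, 3, 4 and 5. Library 4 exceeded every syngeneic library, library 5 lay between the vehicle groups, and libraries 2 and 3 lay at the allogeneic level. The log2 fold change of 3.50 (SE 1.25, edgeR adjusted p = 0.03) rested on library 4: without it, the change was 0.67 (adjusted p = 0.37). The call was lost in 7 of 15 alternatives.

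Hair shaft and inner root sheath markers split the same 4 libraries. Their sum was 63.7 and 62.6 CPM in libraries 2 and 3, 45671 CPM in library 4 and 5786 CPM in library 5. Krt71 was at 0.659, 0.914, 15144 and 2002 CPM. Fgf22, the inner root sheath FGF, was at 7.72, 3.27, 40.1 and 10.8 CPM, with library 4 again the highest of all 15. Bmp4 was higher in libraries 4 and 5 as well (17.2, 12.1, 45.2 and 36 CPM). Fgf18 ran the other way, with its lowest combination value in library 4 (12.2, 15.6, 5.14 and 9.5 CPM). Skeletal muscle markers split these libraries in the opposite direction, with sums of 27372, 11001, 2123 and 129 CPM in libraries 2, 3, 4 and 5. Acta1, the actin of skeletal muscle fibres, was at 13151, 4540, 1005 and 4.12 CPM. Corin, of the dermal papilla, was at 0.31, 0.673, 5.31 and 5.02 CPM. The summed dermal papilla list did not follow that split (82.7, 112, 71.8 and 102 CPM). Alx4, its other defining marker, was clearly higher in library 5 only (2.68, 1.92, 3.73 and 10.9 CPM). The part of the follicle and muscle markers in the values of the members was not tested.

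**Figure D4:**
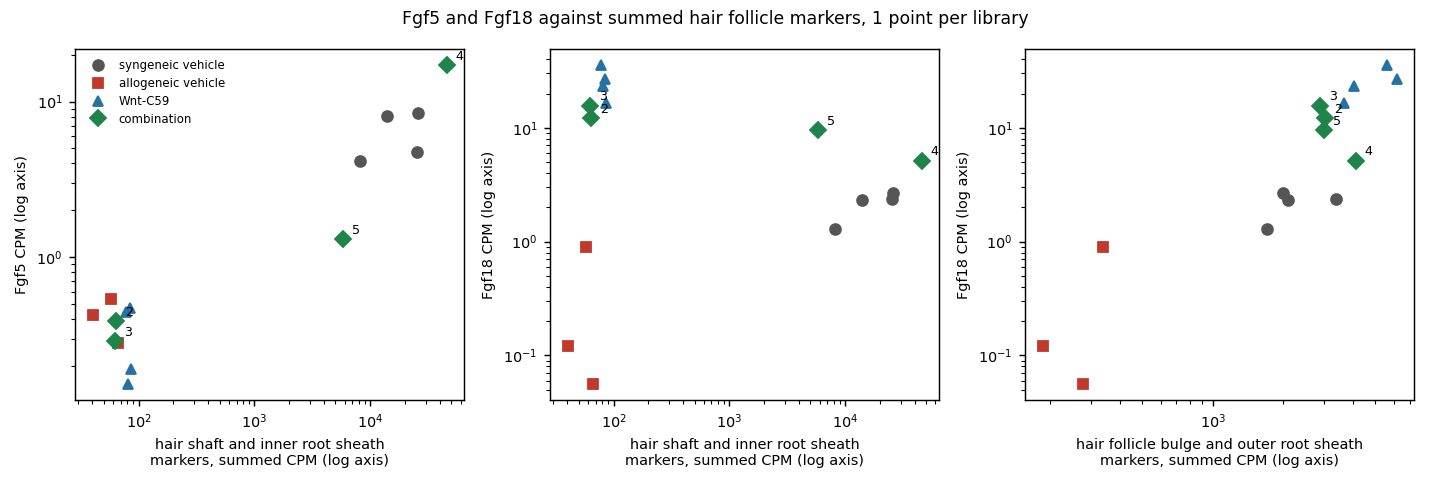
Fgf5 (left) and Fgf18 (middle) against summed hair shaft and inner root sheath markers, and Fgf18 against summed bulge and outer root sheath markers (right), all in CPM on log axes, 1 point per library with combination libraries numbered. Combination libraries 4 and 5 lie with or near the syngeneic libraries along the hair shaft axis, and libraries 2 and 3 lie with allogeneic and Wnt-C59 skin.

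Fgf18 was nonetheless above allogeneic vehicle in all 4 combination libraries, with a log2 fold change of 4.88 (SE 0.67, adjusted p = 5.1e-05). It was 6.82 without allogeneic library 2 and 4.17 with the GC trend removed. Bmp4 rose by 2.38 (SE 0.52, adjusted p = 0.0018) on the log2 scale. Bmp2, at 20.2, 15.9, 25.1 and 17.8 CPM, rose by 1.59 (SE 0.30, adjusted p = 0.00047). Bmp6, at 16.5, 12, 18.1 and 15.3 CPM, rose by 1.80 (SE 0.29, adjusted p = 0.00014), and by 0.99 with the GC trend removed (adjusted p = 0.012). Each of these 4 was above every allogeneic library, and their calls held in all 15 alternatives.

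Fgf7 was at 11.4, 17, 4.18 and 7.46 CPM, wide enough to span both vehicle groups (0.43, 95% interval -0.45 to 1.30). With the GC trend removed it was called higher (1.86, adjusted p = 0.0047), as was Fgf10 (1.11, adjusted p = 0.022, against 0.18 otherwise). Fgf10 itself was at 3.69, 6.16, 2.32 and 3.94 CPM. Nog was at 7.18, 5.87, 4.35 and 3.53 CPM and overlapped with allogeneic skin (0.27, 95% interval -0.63 to 1.17). Grem1 was at 32.6, 41.8, 18.2 and 24.4 CPM, a difference of -0.95 (95% interval -1.83 to -0.07, adjusted p = 0.064), which passed without allogeneic library 2 (-1.37, adjusted p = 0.0018) and without combination library 3 (-1.17, adjusted p = 0.039).

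Between the combination and Wnt-C59, the comparison that addresses what belumosudil added, edgeR called none of the 10 members, beside 0.231% of all tested genes. DESeq2 called 2 members, Fgf5 and Fgf18, but it also called 1507 of the 18651 tested genes. With limma-voom 0 members were called, beside 60 of all genes. The same 2 members had an unadjusted p under 0.05 in edgeR, a level for which the share of all genes was not counted. Fgf18 was lower in every combination library (5.14 to 15.6 CPM) than in any Wnt-C59 library (16.4 to 35.4 CPM), a difference of -1.26 on the log2 scale (95% interval -2.25 to -0.26, adjusted p = 0.16). It was the 1 member without overlap, beside 7.28% of all genes that were lower without overlap. DESeq2 gave -1.24 with an adjusted p of 0.043. For Fgf5 the difference was 3.89 (95% interval 1.45 to 6.33, adjusted p = 0.1), and 1.06 without combination library 4.

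For the BMP genes, the intervals of the difference between the treatments were narrower. They ran from -0.78 to 0.33 for Bmp2, -0.75 to 1.14 for Bmp4 and -0.63 to 0.43 for Bmp6 on the log2 scale. For the antagonists they ran from -1.05 to 0.60 (Nog) and from -1.31 to 0.33 (Grem1). With 4 libraries a group, true differences anywhere within these bounds remain compatible with the data.

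Against syngeneic skin, Fgf18, Fgf10 and Nog were called in both treated groups. Fgf18 was higher with Wnt-C59 (3.54 on the log2 scale, SE 0.51, adjusted p = 9.6e-05) and with the combination (2.29, SE 0.49, adjusted p = 0.0014). Fgf10 was lower with Wnt-C59 (-1.59, adjusted p = 0.001) and with the combination (-1.14, adjusted p = 0.0078). With the GC trend removed, these values were 2.99 and 1.64 for Fgf18, and -0.89 and -0.31 for Fgf10, the last no longer called (adjusted p = 0.46).

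Nog, Noggin's gene, was higher than in syngeneic skin with Wnt-C59 (1.39, adjusted p = 0.0089) and with the combination (1.17, adjusted p = 0.022), and both calls were lost with the GC trend removed (0.84, adjusted p = 0.073, and 0.52, adjusted p = 0.26). With the combination, the Nog call was also lost without syngeneic library 1 (1.05, adjusted p = 0.062), syngeneic library 4 (1.10, adjusted p = 0.053) or combination library 2 (0.98, adjusted p = 0.069). Fgf5 was lower with Wnt-C59 (-4.31, SE 1.14, adjusted p = 0.0067). For the combination its difference of -0.42 did not pass, and it was -3.25 (adjusted p = 0.00028) without combination library 4. In all, 2 members were called higher and 2 lower with Wnt-C59 (26% and 27% of all tested genes, 53.1% in either direction), and 2 higher and 1 lower with the combination (26.9% and 27.2%, 54.1% in either direction). The 95% intervals for Bmp2 and Bmp4 included 0 in both treated groups. That of Bmp6 lay above 0 with Wnt-C59 (0.60, 95% interval 0.07 to 1.13), though edgeR did not call it (adjusted p = 0.056). This difference was called in 6 of 16 alternatives and changed sign in 1. With the combination the Bmp6 interval was -0.03 to 1.03.

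Genes whose level over the 15 libraries was most like that of a member were listed by the root mean square difference of z-scored log2 CPM, among 15521 candidates. Closest to Fgf18 were Pex16 (0.23) and Pcsk4 (0.25), and closest to Fgf5 were Kcne1 (0.24) and Krt39 (0.24), a hair keratin. Tril (0.25) and Tbc1d22b (0.28) were closest to Bmp4, Efs (0.29) and Tle2 (0.29) to Bmp6, and Syngr1 (0.33) and Myh14 (0.35) to Bmp2. Nog had St3gal3 (0.37) and Ubac1 (0.39), and Fgf22 had Gm14137 (0.40) and Paqr8 (0.44). Least well matched were Fgf10 (Trmt11, 0.47, and Thumpd1, 0.48), Fgf7 (Cyb5b, 0.50, and Prr16, 0.69) and Grem1 (Cd177, 0.52, and Grid2ip, 0.53). Among the members themselves, Fgf18 was nearest to Bmp6 (0.51), Bmp2 and Bmp4 to each other (0.55), and Fgf5 to Fgf22 (0.62).

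Of 9 BMP targets, genes that answer to BMP signals, 5 fell in allogeneic against syngeneic skin, beside 15.1% of all tested genes called lower, with a median log2 fold change of -1.09. Msx1, a homeobox gene of the hair matrix, was at 28.3 to 33.1 CPM in syngeneic and 0.668 to 1.26 CPM in allogeneic skin (-4.98, SE 0.75, adjusted p = 0.00033). Smad6, an inhibitory SMAD, fell by 2.52 (adjusted p = 0.0016) and Id3, a direct BMP target that blocks bHLH factors, by 1.09 (adjusted p = 0.0026). Against allogeneic vehicle 3 of the 9 targets were higher with Wnt-C59, near the 24.6% of all genes, and 6 with the combination, beside 27.1%. The count with Wnt-C59 was 1 without allogeneic library 1 or Wnt-C59 library 4. It was also 1 with the GC trend removed, where Id3 changed by 0.39 (adjusted p = 0.17) and Smad6 by 0.40 (adjusted p = 0.53).

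Msx1 and Msx2 followed the split of the combination libraries. Msx1 was at 2 to 2.93 CPM with Wnt-C59 and at 2.68, 2.79, 21 and 20.5 CPM in combination libraries 2, 3, 4 and 5. Msx2, which is also in the hair shaft list, was at 5.33 to 6.55 CPM and at 2.64, 3.51, 121 and 43.2 CPM. Msx1 rose against allogeneic vehicle with the combination (3.57, SE 0.71, adjusted p = 0.00087), and was still called without library 4 (3.13, adjusted p = 0.002) and with the GC trend removed (2.78, adjusted p = 0.0075). Id3 was less split (79.3, 115, 91.4 and 99.7 CPM) and rose by 1.21 (adjusted p = 0.0005), or by 0.56 with the GC trend removed (adjusted p = 0.053).

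Of 11 other BMP antagonists tested, 5 fell in allogeneic skin (15.1% of all genes were lower) and 1 rose (14.6% were higher), Twsg1 (0.61, adjusted p = 0.0081). Bambi, a decoy receptor, fell by 4.32 (SE 0.96, adjusted p = 0.005), from 29.3 to 70.7 CPM in syngeneic to 1.92 to 3.22 CPM in allogeneic skin, and Bmper fell by 2.23 (adjusted p = 0.00072), or by 2.88 without allogeneic library 1. Without syngeneic library 3 or allogeneic library 3 the count of falls was 3. In Wnt-C59 skin 7 rose and 2 fell against allogeneic, among them Fst, the activin and BMP binder follistatin (1.63, adjusted p = 0.00035), Htra1 (1.43, adjusted p = 0.00039, or 0.83 with the GC trend removed) and Twsg1 (1.99-fold lower, adjusted p = 0.00013). In combination skin 8 rose and 1 fell, and 5 rose with the GC trend removed. All genes called higher and lower made up 24.6% and 26.2% with Wnt-C59, and 27.1% and 27.4% with the combination.

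Among other BMP and GDF ligands, Bmp7 fell in allogeneic skin and rose in both treated groups, as Bmp2, Bmp4, Bmp6 and Fgf18 did. It was at 62.2 to 84.6 CPM in syngeneic, 25.5 to 41.6 in allogeneic, 56.7 to 79.1 in Wnt-C59 and 88.3 to 129 CPM in combination skin. It fell by 1.17 in allogeneic skin (adjusted p = 0.00076) and rose by 1.16 with Wnt-C59 (adjusted p = 0.00036) and by 1.77 with the combination (adjusted p = 1.5e-05), the last being 1.15 with the GC trend removed. Of 8 such ligands tested, 1 rose and 2 fell in allogeneic skin, 2 rose and 1 fell with Wnt-C59, and 4 rose and 1 fell with the combination (2 rose without allogeneic library 2), beside the same shares of all genes.

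Of 11 BMP receptors and SMADs, 1 fell and 2 rose in allogeneic skin, near the shares of all genes (15.1% lower and 14.6% higher). With Wnt-C59, 6 fell, beside 26.2% of all genes, and 3 rose, near the 24.6% of all genes. With the combination, 5 fell, beside 27.4%, and 2 rose, beside 27.1%. The lead was Bmpr2, the type II receptor, at 114 to 238 CPM in syngeneic and 183 to 203 CPM in allogeneic skin, against 41.9 to 62.3 CPM with Wnt-C59 and 31.6 to 51.8 CPM with the combination. It fell by 1.87 (adjusted p = 2.9e-05) and 2.22 (adjusted p = 7.8e-06) against allogeneic vehicle, and by 1.02 and 1.25 with the GC trend removed. The count of rises with Wnt-C59 was 0 without Wnt-C59 library 2 or 4, and 1 without allogeneic library 1 or 2.

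On the FGF side, 2 of 8 receptors and co-receptors fell in allogeneic skin, beside 15.1% of all genes. They were Fgfr4 (-2.51, adjusted p = 0.0048) and Fgfr2 (-1.18, adjusted p = 0.0063). FGFR2 is a receptor of FGF7, FGF10 and FGF22. Fgfr4 rose with Wnt-C59 (3.66, adjusted p = 0.00023) and with the combination (2.76, adjusted p = 0.0012). These values were 2.82 and 1.87 with the GC trend removed, and the first was 3.03 without Wnt-C59 library 2. In all 5 rose and 1 fell with Wnt-C59, beside 24.6% and 26.2% of all genes, and 4 rose and 1 fell with the combination, beside 27.1% and 27.4%, the fall being that of the adaptor Frs2 (-1.17, adjusted p = 0.00011, and -1.35, adjusted p = 2.9e-05). The count of rises with Wnt-C59 was 3 without allogeneic library 1, and that with the combination was 2 with the GC trend removed. Of 7 other FGF ligands tested, 1 rose in allogeneic skin, 1 fell with Wnt-C59, and 2 rose and 1 fell with the combination. These counts were near or under the shares of all genes (14.6%, 26.2%, 27.1% and 27.4%, in that order). Fgf2, a broadly made FGF, fell with Wnt-C59 (-0.86, adjusted p = 0.011) and with the combination (-0.99, adjusted p = 0.0041), calls not made with the GC trend removed. Without allogeneic library 2 the call with Wnt-C59 was also lost (-0.63, adjusted p = 0.065).

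Of 12 FGF-ERK feedback and target genes, 5 fell and 1 rose in allogeneic skin, beside 15.1% and 14.6% of all genes. Etv4, an ETS factor switched on by FGF signals, fell by 2.37 (adjusted p = 0.00021), Il17rd, a feedback inhibitor, fell by 1.25 (adjusted p = 0.0025), and Etv1 rose by 1.46 (adjusted p = 0.00039). The count of falls was 3 without syngeneic library 2 or 4 and 2 without allogeneic library 1. Spry1, another feedback inhibitor, rose with Wnt-C59 (1.76, adjusted p = 3.7e-05) and with the combination (1.55, adjusted p = 6.8e-05). Spred1 fell in both (-1.42, adjusted p = 1e-05, and -1.33, adjusted p = 1.1e-05). With the GC trend removed the values were 1.11 and 0.81 for Spry1 and -0.58 and -0.37 for Spred1, all still called. In all 2 rose and 3 fell with Wnt-C59, at or under the 24.6% and 26.2% of all genes, and 4 rose and 3 fell with the combination, near the 27.1% and 27.4% of all genes.

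Dusp6, the phosphatase that turns ERK off, was the 1 gene of these pathway lists that edgeR called between the treatments. It was at 52.4, 38.5, 39.9 and 35.1 CPM with Wnt-C59 and at 123, 170, 83.4 and 84 CPM with the combination. All 4 combination libraries lay above all 4 Wnt-C59 libraries and 2 of them above the syngeneic range of 72.1 to 93.9 CPM. The log2 fold change was 1.47 (SE 0.27, adjusted p = 0.046). The call was lost when any Wnt-C59 library or combination library 2 or 3 was left out, with values of 1.22 to 1.61 and an adjusted p of up to 0.13, and with only these groups in the fit (1.49, adjusted p = 0.071). With DESeq2, only the gene of each list with the smallest edgeR adjusted p was looked at. Among these, DESeq2 called Dusp6 (adjusted p = 3.1e-05) and 5 more. Since the genes were picked by their small p in the same libraries, these calls are no separate evidence. DESeq2 called 1507 of all 18651 tested genes in this comparison. Fgf23 (4.63, adjusted p = 0.0022), Msx1 (2.28, adjusted p = 0.0012) and Bmp7 (0.63, adjusted p = 0.035) were higher with the combination. Frs3 (-0.79, adjusted p = 0.011) and Twsg1 (-0.48, adjusted p = 0.028) were lower.

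**Figure D5:**
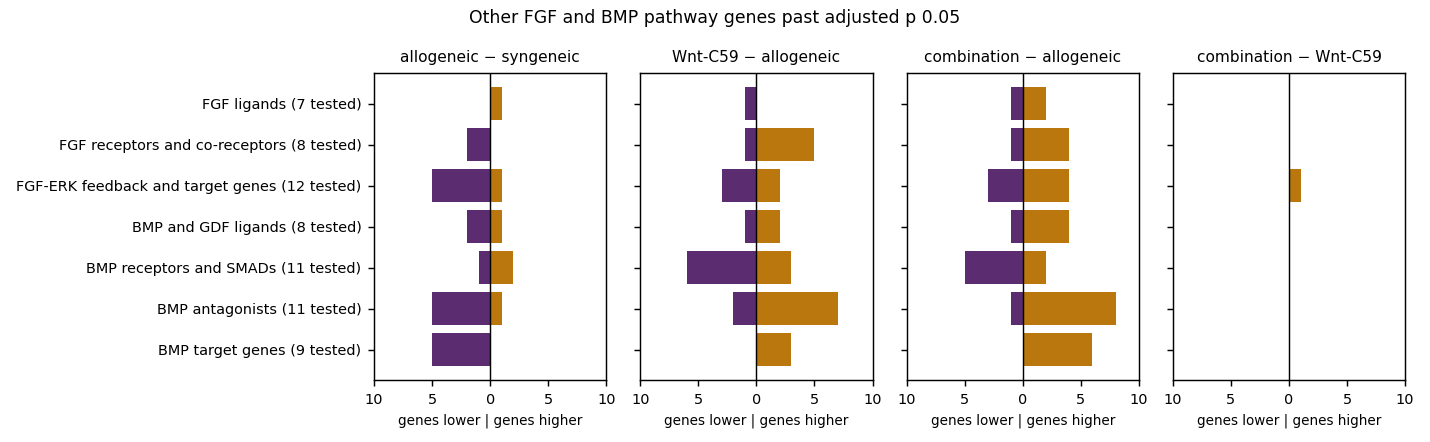
Number of other FGF and BMP pathway genes called higher (right) or lower (left) at an edgeR adjusted p under 0.05 in each list and comparison. BMP targets have 5 genes lower in allogeneic against syngeneic skin and 6 higher with the combination, and 1 gene, Dusp6, stands in the panel of combination against Wnt-C59.

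Reads of some members cannot be told from those of genes on the other strand, since no source used here gives the strand setting. Bmp4, Bmp6, Fgf7, Fgf10 and Fgf22 each overlap such a gene in the annotation, for instance Txndc5 at Bmp6 and Rnf126 at Fgf22, and their values are uncertain to that extent.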

How the data were processed

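Skin RNA from mice was sequenced in 15 libraries. Values deposited by the authors are estimated counts for each gene, with fractions and without scaling to depth. FastQC, Trim Galore, HISAT2 and featureCounts with build GRCm39 are named, without versions or order, in the submitters' processing notes, and read sharing between genes and the strand setting are not given in the sources used here. The 10 members and the gene lists were chosen with earlier results of these data known.

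Of 56059 genes, 51276 (91.5%) were given a symbol by Ensembl identifier. Estimated counts were rounded (whole counts had been assumed), scaled by TMM, filtered by filterByExpr (18651 genes tested) and fitted in edgeR 4.0.16 (R 4.3.3, quasi-likelihood, robust) to all 15 libraries with no term besides group. Calls were made per comparison at 0.05 after Benjamini-Hochberg adjustment over all tested genes. Intervals (95%) were formed from the SE and the fit's degrees of freedom. GC content and transcript length came from GENCODE M21 (GRCm38), used for no coordinates, and promoters from RefSeq (GRCm38.p6). The steps were tested on simulated data in which few genes changed and no GC trend was set, unlike in the treated libraries here.

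Named were all members and the 2 most similar genes of each member. Pathway genes were drawn from up to 3 called genes per list and comparison with the smallest adjusted p (where none, the first). Single markers were drawn from the first 2 of each cell type list. Not all genes of these last 2 pools are given in the text. Alternatives were DESeq2 size factors, upper quartile scaling, no filter, unrounded counts, DESeq2 1.42.0, limma-voom (3.58.1), only the 2 groups compared, removal of each library's GC trend, a replicate block (allogeneic against syngeneic), and each library left out.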

Additional observations from a re-analysis of the deposited data

Results flagged for a closer look

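Among 30 groups of 4 libraries tested, 3 held a member value far from the rest, its gap to the nearest library, as a share of the group's range, exceeding Dixon's critical value at 95%. Chance flags about 1 in 20 such groups. Fgf5 was highest in combination library 4 at 17.1 CPM (0.939 of the range), the library with the most hair shaft and inner root sheath markers. Fgf7 was highest in Wnt-C59 library 2 at 13.6 CPM (0.849 of the range), the others lying between 5.61 and 6.82 CPM. Fgf22 was lowest in syngeneic library 1 at 11.4 CPM (0.92 of the range), the others lying between 25.7 and 26.9 CPM.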

How the results depend on the processing

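Of the members' calls, 323 comparisons of a called value with an alternative stayed called in the same direction and 20 lost the call; of values not called, 545 stayed so, 31 became called and 21 changed sign. The number of members called moved by more than 1.5 times in these cases: the combination against Wnt-C59 with DESeq2 (2, against 0), Wnt-C59 against syngeneic with only these groups in the fit (7, against 4), and the combination against syngeneic without combination library 4 (5, against 3). With 1 library left out the counts ranged from 4 to 6 (allogeneic against syngeneic), 4 to 6 (Wnt-C59 against allogeneic), 4 to 6 (combination against allogeneic), 0 to 0 (combination against Wnt-C59), 4 to 5 (Wnt-C59 against syngeneic) and 2 to 5 (combination against syngeneic). The cause was not tested.

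Signs changed with the GC trend removed for Fgf10 (0.52), Nog (-0.13) and Atoh8 (-0.41, called as higher before) in Wnt-C59 against allogeneic, Fgf22 (-0.06) and Nog (-0.45) in the combination against allogeneic, Fgf7 (0.41) and Bmp6 (-0.05) in Wnt-C59 against syngeneic, and Fgf7 (0.95) and Bmp6 (-0.22) in the combination against syngeneic. With limma-voom Fgf22 was -0.01 for the combination against Wnt-C59. Without 1 library they changed for Fgf7 (-0.24, without Wnt-C59 library 2) in Wnt-C59 against allogeneic, and for Fgf10 (-0.04 without allogeneic library 3, -0.10 without combination library 3), Fgf22 (-0.44, without combination library 4) and Nog (-0.06, without allogeneic library 3) in the combination against allogeneic. In the combination against Wnt-C59 they changed for Fgf7 (-0.08, without combination library 3), Fgf22 (-0.44) and Bmp4 (-0.15, both without combination library 4) and Bmp6 (0.10, without Wnt-C59 library 4). Against syngeneic they changed for Bmp2 (0.05, Wnt-C59, without syngeneic library 2), and for Bmp4 (0.04) and Grem1 (-0.07) in the combination without its library 3. With a library left out these values ran up to 0.30 (Fgf7, Wnt-C59 against allogeneic), 1.05 (Nog, combination against allogeneic), 0.67 (Fgf7), 0.98 (Fgf22), 0.44 (Bmp4) and down to -0.21 (Bmp6) for the combination against Wnt-C59, and against syngeneic to -0.40 (Bmp2, Wnt-C59), -0.55 (Bmp4, combination) and 0.32 (Grem1, combination). The cause was not tested.

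A replicate block for allogeneic against syngeneic called 7 members (Fgf22 added, -1.14, adjusted p = 0.023) and 2982 genes in all, against 5556. Same-numbered libraries did not deviate together (r = -0.0651, -0.0913 and -0.0304), so no pairing by number was seen. With so few libraries this check cannot exclude a weak pairing. No paired analysis was possible for the treated groups because their columns do not carry the numbers of the labels. All genes called between the combination and Wnt-C59 numbered 43, and 1507 with DESeq2, 18 with only these groups, 69 with the GC trend removed and 1 to 45 with a library left out. Depth limits Fgf18 in allogeneic skin (1 to 15 counts) and Fgf5 there and with Wnt-C59 (3 to 9 counts).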

Other observations

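Fgf23, the phosphate hormone that is chiefly made by bone, differed widely between libraries. It was at 0 in 3 syngeneic libraries and at 0.0464 CPM in the other, at 1.88, 0.898 and 1.01 CPM in allogeneic skin and at 0.149 to 1.23 CPM with Wnt-C59. Combination libraries 2 and 3 held 14.3 and 28.6 CPM, and libraries 4 and 5 held 0.678 and 1.31 CPM. Libraries 2 and 3 also had hair shaft markers and Fgf5 at the allogeneic level. The difference in Fgf23 between the treatments did not pass in edgeR (adjusted p = 0.078).

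Bmp8a, a BMP ligand, was at 7.06, 12.9, 4.49 and 9.17 CPM in syngeneic skin and at 0.121, 0 and 0.0564 CPM in allogeneic skin. With Wnt-C59 it was at 0.0513 to 0.208 CPM. In combination libraries 2, 3, 4 and 5 it was at 0.233, 0, 1.92 and 0.95 CPM. Like Fgf5, it was higher in libraries 4 and 5 than in the other two. Id1, a direct BMP target, was at 138, 295, 112 and 93.8 CPM in those libraries, with library 3 the highest of all 15.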
